A study of Mus musculus with 16 samples.

Results

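Effector CD8 T cells from leukaemia-bearing mice were compared between mice reconstituted with Il4i1 knockout (KO) bone marrow and mice reconstituted with wild-type (WT) bone marrow. The members were the samples titled as effector cells, 8 of the 16 samples of the series, 4 per genotype, and the comparison ran over 22180 genes. Every group shares the same background: female chimeric mice of the strain given as C56BL/6, carrying transplanted chronic lymphocytic leukaemia (CLL) cells from Eµ-TCL1 mice, with spleen CD8 T cells sorted 5 weeks after that transplantation. Effector KO and Effector WT cells were CD44 positive and CD127 negative, and Memory KO and Memory WT cells were CD44 high and CD127 high. Memory values are given only where named. The memory arrays nevertheless entered the fit behind each standard error and p-value, except where the effector arrays alone are named. In the Eµ-TCL1 model the human oncogene TCL1 is driven in B cells. The KO bone marrow chimeras lack Il4i1 in cells that grow from the donor marrow, and host cells that survive conditioning can keep the gene. Whether samples of 1 genotype come from separate animals is not stated in the labels. The p-values below measure the spread between samples within the groups that were fitted.

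Il4i1 encodes a secreted amino acid oxidase made mainly by myeloid cells and activated B cells. It degrades phenylalanine, tyrosine and tryptophan in the surroundings of T cells, and products of tryptophan breakdown can activate the aryl hydrocarbon receptor. Effector CD8 T cells kill through granules of perforin and granzymes, and under lasting stimulation they take up inhibitory receptors, while memory cells keep the interleukin-7 receptor and the genes of circulation through lymph and blood.

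Expression was measured on 1-colour Affymetrix arrays, and all values are on the log2 scale, where a difference of 1 is a 2-fold change. Array medians of the 8 effector arrays lay between 4.16 and 4.22, and precision is limited by how many arrays there are. The array of sample Effector KO-4 stood apart: its correlation over genes with the other 7 effector arrays was 0.968 to 0.974, while those 7 correlated with each other at 0.984 to 0.994. It lay at least 1 below the mean of the other 3 KO arrays on 808 genes and at least 1 above on 293, against 37 to 109 and 69 to 170 for the other KO arrays set against their group in the same way. Most differences are therefore given with and without it. The coreceptor genes that define CD8 T cells were strongly expressed on every effector array: Cd8b1 lay between 11.23 and 11.76 and Cd8a between 9.80 and 10.30. The 13 measured genes of the CD8 T cell identity list had a median difference of -0.0002 (KO minus WT), 6 of them higher and 7 lower. The genotype could not be checked on the targeted gene, because the probe set for Il4i1 is shared with Nup62 and Il4i1b. It read 5.74 to 5.99 on the KO arrays and 5.88 to 6.02 on the WT arrays.

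With all arrays, 12 of 22180 genes (0.0541%) differed between KO and WT at an adjusted p under 0.05 (limma, Benjamini-Hochberg over all genes), 8 higher and 4 lower in KO. Without Effector KO-4, 9 genes (0.0406%) passed, 7 higher and 2 lower. The lists shared 7 genes, 58.3% of the genes passing with all arrays and 77.8% of those passing without Effector KO-4: Klk1b22, Igsf23, Myadm, Ubxn11, Smim40 and Wdtc1 were higher in KO and Tbc1d17 was lower. Passing with all arrays only were Il7r and Lamp1, both higher, and Alkbh6, Ndufa3 and 1 predicted gene, all lower. Passing without Effector KO-4 only were Sae1, higher, and Emc10, lower. The count also moved with other single arrays: 42 genes passed without Effector KO-2, 4 without Effector WT-1, 6 without Effector WT-2 and 6 without Effector WT-3. With the memory arrays left out of the model 4 genes passed, and 2 without Effector KO-4. There Igsf23, Ubxn11 and Alkbh6 missed the threshold, each at adjusted p = 0.0563 (limma), Smim40 at 0.146, and Tbc1d17, Lamp1, Il7r and Ndufa3 at 0.33, 0.42, 0.445 and 0.615, while Klk1b22, Myadm, Wdtc1 and the predicted gene passed. At an unadjusted p under 0.05 there were 2067 genes with all arrays and 1363 without Effector KO-4.

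**Figure D1:**
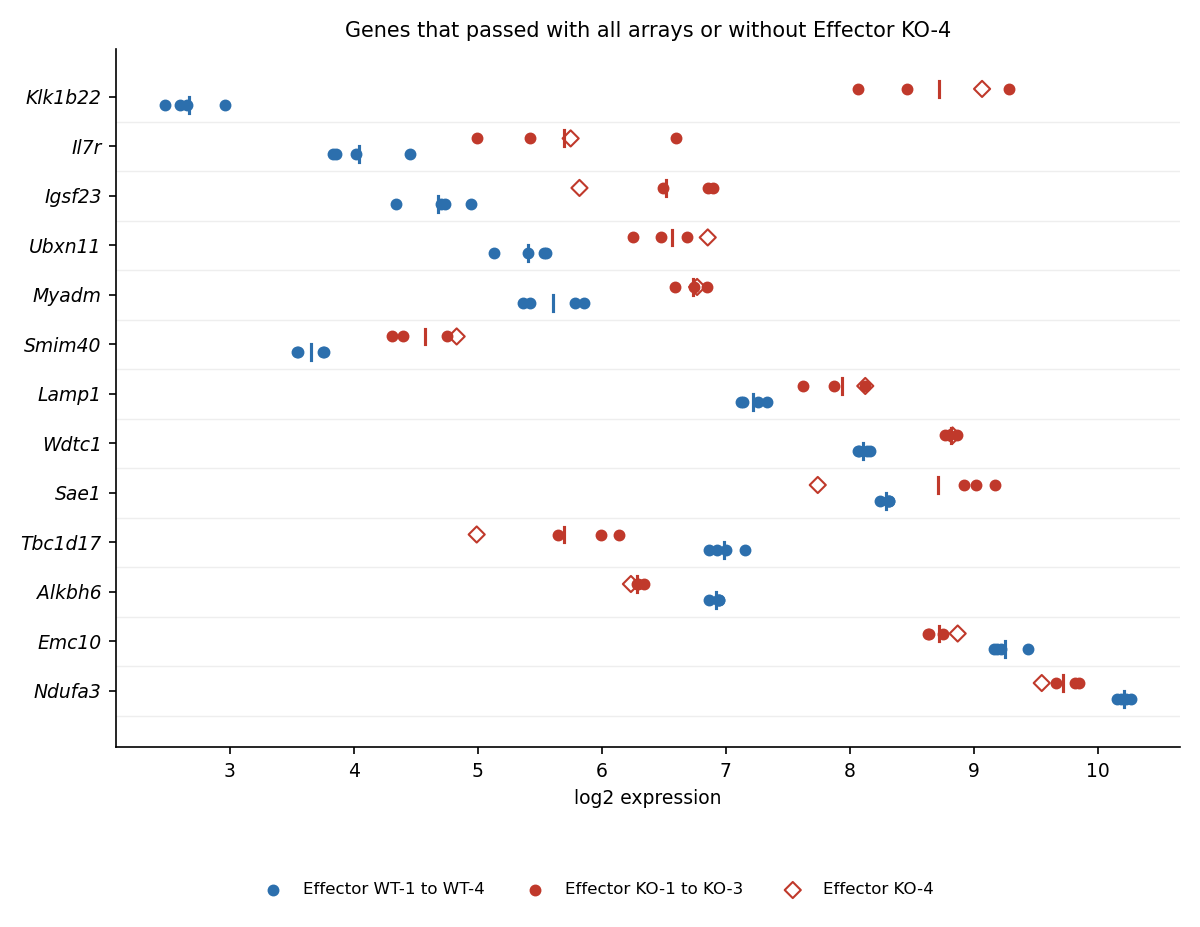
Log2 expression (horizontal axis) of the 13 named genes that passed in either comparison, 1 gene per row. Points are single arrays, WT in blue, KO-1 to KO-3 in filled red and KO-4 as an open red diamond, and short vertical lines are group means over 4 arrays; KO and WT points do not overlap for 12 of the 13 genes, and for Sae1 the KO-4 array lies below the WT arrays.

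Klk1b22, a serine protease of the kallikrein family, had the largest difference of the genes tested, in either comparison. It read 8.07, 8.46, 9.29 and 9.07 on arrays KO-1 to KO-4 and 2.60, 2.65, 2.48 and 2.96 on WT-1 to WT-4. All 4 KO arrays, KO-4 among them, lay far above the WT arrays. The difference was 6.05 ± 0.27 (standard error, SE, of the fit; n = 4 and 4; adjusted p = 2.34e-09), and without KO-4 it was 5.93 ± 0.28 (n = 3 and 4, adjusted p = 2.3e-08), a 61.0-fold change. Each WT array read Klk1b22 below its own median, where values come close to background, so the fold is approximate. In memory cells Klk1b22 differed by 5.90 (adjusted p = 3.43e-09).

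No other measured gene of the kallikrein cluster on chromosome 7 passed. Of its 23 measured genes, Klk1b22 included, 18 were higher and 5 lower in KO, and the median difference was 0.13, or 0.14 without KO-4. The promoters of the 10 measured neighbours compared with that of Klk1b22 matched it at 50.5% to 82.5% of aligned columns. The 250 bases before the start of Klk1b22 are shown with those of Klk1b9, the measured paralog most like it in a global alignment (212 identical bases in 257 aligned columns, 82.5%). They come from RefSeq, build GRCm38.p6, are written 5′ to 3′ on the gene's strand, and capitals mark bases with no identical partner in the other sequence.
Klk1b22, chr7:44112423-44112672, plus strand: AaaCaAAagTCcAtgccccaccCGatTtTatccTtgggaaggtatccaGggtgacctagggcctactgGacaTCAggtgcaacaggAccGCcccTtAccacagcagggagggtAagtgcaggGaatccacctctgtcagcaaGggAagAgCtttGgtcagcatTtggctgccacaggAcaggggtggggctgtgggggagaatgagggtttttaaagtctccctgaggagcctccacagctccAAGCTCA
Klk1b9, chr7:43975811-43976060, plus strand: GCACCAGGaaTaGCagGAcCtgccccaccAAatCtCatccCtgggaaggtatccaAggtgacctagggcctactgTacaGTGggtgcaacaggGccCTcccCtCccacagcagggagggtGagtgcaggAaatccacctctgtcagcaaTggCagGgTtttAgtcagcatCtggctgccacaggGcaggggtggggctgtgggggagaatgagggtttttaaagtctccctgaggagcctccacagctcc
Klk1b9, chosen for its promoter and not for its values, read 4.72, 3.66, 4.04 and 2.27 on the KO arrays and 3.99, 3.53, 3.08 and 3.93 on the WT arrays, and these ranges overlap. Its difference was 0.04 (adjusted p = 0.987), and 0.51 without KO-4. Near-identical paralogs can share probes in part, so the separate values of these genes are uncertain.

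Il7r encodes the α chain of the interleukin-7 receptor, the CD127 protein by which the cells were gated. On KO-1 to KO-4 it read 6.60, 5.43, 5.00 and 5.75, and on WT-1 to WT-4 3.83, 3.85, 4.02 and 4.46. No KO array reached down to a WT array, and KO-1 was the highest. On WT-1 to WT-3 Il7r lay below the array median, where values come close to background, so the size of the difference is approximate. The difference was 1.65 ± 0.25 (adjusted p = 0.0183). Without KO-4 it was nearly the same size, 1.63 ± 0.28, and no longer passed (adjusted p = 0.0642, limma); it also missed the threshold without WT-1, WT-2 or WT-3, and the adjusted p over all single-array omissions ranged from 0.00715 to 0.0952. With the effector arrays alone it was 0.445. In memory cells Il7r averaged 11.08 in KO and 10.71 in WT, and the KO effect there was 0.38. The effector minus memory difference of the KO effects was 1.27, with an adjusted p of 0.837. Since CD127 defined the gate, a change in the share of CD127-positive cells and a change in Il7r RNA per cell cannot be told apart in these bulk samples.

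Igsf23, a member of the immunoglobulin superfamily, rose from a WT range of 4.34 to 4.95 to 6.86, 6.49, 6.90 and 5.82 on KO-1 to KO-4. The KO-4 array was the lowest of the KO arrays, and the difference grew from 1.84 ± 0.22 (adjusted p = 0.0023) to 2.07 ± 0.19 without it (adjusted p = 0.000113). Myadm, which encodes a membrane protein of lipid rafts, read 6.85, 6.75, 6.59 and 6.77 in KO against 5.37, 5.42, 5.79 and 5.86 in WT. Its difference was 1.13 ± 0.15, and 1.12 ± 0.16 without KO-4 (adjusted p = 0.00497 and 0.0154). Neither Igsf23 nor Myadm lost its call when any single array was left out.

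Wdtc1, a substrate receptor of a cullin ubiquitin ligase, had narrow groups: 8.76, 8.86, 8.80 and 8.83 in KO and 8.07, 8.07, 8.14 and 8.16 in WT. The difference was 0.70 ± 0.08 (adjusted p = 0.00184), 0.70 ± 0.09 without KO-4 (adjusted p = 0.00377), and 0.62 in memory cells (adjusted p = 0.00311). Ubxn11, a protein with a UBX domain, read 6.25, 6.48, 6.69 and 6.86 in KO and 5.40, 5.13, 5.54 and 5.55 in WT, a difference of 1.16 ± 0.17 and, without KO-4, 1.07 ± 0.18. Both genes lie on chromosome 4, 16 places apart in the RefSeq order of the tested genes. Smim40, a small membrane protein gene on chromosome 17, read 4.75, 4.40, 4.31 and 4.83 in KO and 3.55, 3.55, 3.75 and 3.76 in WT. Each WT array read it below its own median. Ubxn11 and Smim40 had the same adjusted p, 0.0117 with all arrays and 0.0458 without KO-4, and each also lost its call on leaving out WT-1 or WT-2 and 1 of the KO arrays (KO-3 for Ubxn11, KO-1 for Smim40), with adjusted p up to 0.0663 and 0.0695.

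Lamp1 encodes CD107a, the lysosomal membrane protein that reaches the surface when cytotoxic granules are released. It read 8.12, 7.62, 7.87 and 8.13 on KO-1 to KO-4 and 7.26, 7.14, 7.34 and 7.13 on WT-1 to WT-4. The groups did not overlap, and the difference was 0.72 ± 0.11 (adjusted p = 0.0199). It was 0.66 ± 0.11 without KO-4 (adjusted p = 0.0718), and leaving out any effector array other than KO-2 also ended the call, with adjusted p up to 0.104 (limma). With the effector arrays alone the adjusted p was 0.42. The other 22 measured genes of lysosome and degranulation did not pass: 7 of them were higher and 15 lower, and the list's median difference was -0.09, or -0.04 without KO-4.

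Among genes lower in KO, Tbc1d17, whose protein switches off Rab GTPases of vesicle traffic, fell from 6.93, 6.87, 7.16 and 7.0 in WT to 5.65, 6.14, 5.99 and 4.99 in KO. The lowest value was on KO-4, and the difference was -1.29 ± 0.19 with it and -1.06 ± 0.13 without it (adjusted p = 0.0117 and 0.00377). It missed the threshold without WT-1 or WT-3, with an adjusted p up to 0.0594, and with the effector arrays alone, where it was 0.33. Alkbh6, of the AlkB dioxygenase family, had narrow groups of 6.24 to 6.34 in KO and 6.86 to 6.95 in WT. Its difference of -0.64 had an adjusted p of 0.0422, and -0.62 without KO-4 had an adjusted p of 0.126. Its call was also lost under a trended, robust variance model (adjusted p = 0.0915). Ndufa3, a subunit of respiratory complex I, read 9.67, 9.82, 9.85 and 9.55 in KO and 10.22, 10.27, 10.19 and 10.16 in WT. Its difference of -0.49 ± 0.08 (adjusted p = 0.0383) was -0.43 without KO-4 (adjusted p = 0.0983), and with the effector arrays alone the adjusted p was 0.615. The calls of Alkbh6 and Ndufa3 were lost on leaving out 12 and 13 of the 16 arrays in turn, memory arrays included, with adjusted p up to 0.17 for each.

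The remaining genes passed only once KO-4 was set aside. Sae1, a subunit of the enzyme that activates SUMO, read 9.17, 8.92 and 9.02 on KO-1 to KO-3, 7.74 on KO-4, and 8.24 to 8.32 on the WT arrays. The first 3 KO arrays lay above WT and the fourth below it, so the difference was 0.42 ± 0.22 with all arrays (adjusted p = 0.579) and 0.74 ± 0.11 without KO-4 (adjusted p = 0.0149). Emc10, which belongs to a complex that inserts proteins into the endoplasmic reticulum, read 8.63, 8.75, 8.64 and 8.87 in KO against 9.22, 9.19, 9.44 and 9.16 in WT. Its difference was -0.53 ± 0.09 and -0.58 ± 0.09, on either side of the threshold (adjusted p = 0.0525 and 0.0458).

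Il4i1 itself lies on chromosome 7, and so did 7 of the 12 genes that passed with all arrays and 6 of the 9 without KO-4, while the 1948 genes placed there are 8.78% of those tested. Distances were counted in RefSeq order over tested genes only, so genes without a probe set of their own are skipped. Tbc1d17 was the tested gene next to Il4i1. Emc10 was 11 tested genes away, Klk1b22 28, Alkbh6 201, the predicted gene 249, Igsf23 439, Sae1 538, Ndufa3 747 and Myadm 753. All lay on the same side of Il4i1 except Tbc1d17. Both directions occurred, with Klk1b22, Igsf23, Sae1 and Myadm higher in KO and the others lower. Counted outward from Il4i1, the groups did not overlap for 10% of the 50 genes up to 25 places away, 6.67% of the 150 genes from 26 to 100, 6.0% of the 400 genes from 101 to 300, 8.0% of the 600 genes from 301 to 600 and 4.55% of the 748 genes beyond. The share on the other chromosomes was 4.52% of 20046 genes. These shares did not fall steadily with distance, and the median absolute difference was between 0.11 and 0.13 in every bin and 0.11 elsewhere. A knockout allele usually brings flanking DNA of the strain it was made in, and probes can read sequence differences in such DNA as expression. The part of either in these differences was not tested. The same holds for chromosome 7 genes named below that passed in neither comparison, among them Pop4, Pvr, Irf7, Arnt2, Ppp1r15a, Fah and Pold1.

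**Figure D2:**
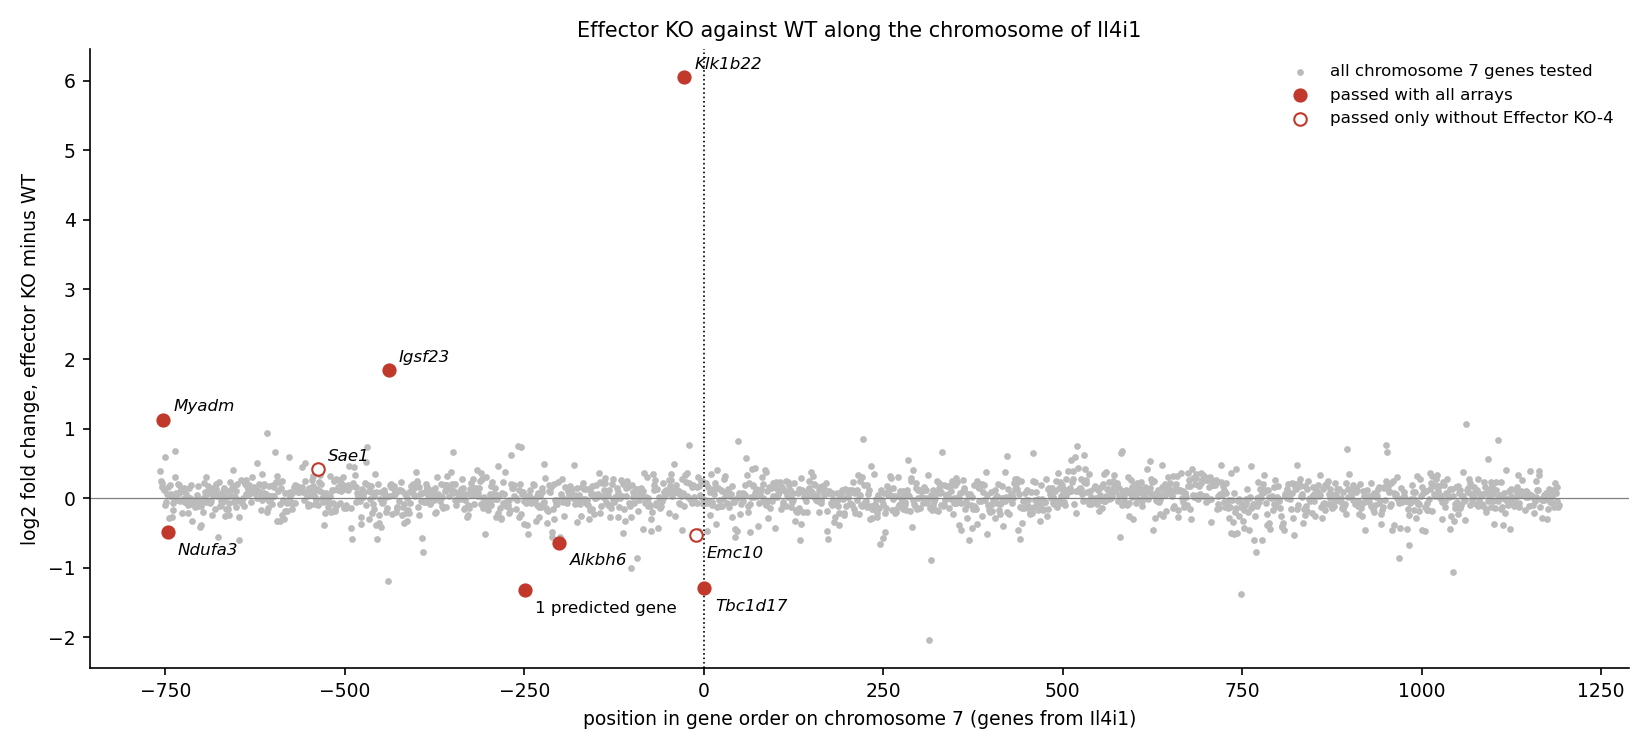
Log2 fold change (effector KO minus WT, vertical axis) of the chromosome 7 genes tested, in gene order counted from Il4i1 at 0 (horizontal axis, dotted line). Filled red points passed with all arrays and open red points passed only without Effector KO-4. The 9 genes marked lie between 753 tested genes before Il4i1 and 1 tested gene after it.

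All 12 genes that passed in effector cells had the same sign in memory cells, and 6 of them passed there too: Klk1b22, Igsf23, Wdtc1, Tbc1d17, Alkbh6 and the predicted gene, out of 25 genes (0.113%) that passed in memory. The interaction, effector minus memory KO effect, passed for 0 genes (0%) with limma, with a smallest adjusted p of 0.3 and 1296 genes at an unadjusted p under 0.05. Without KO-4 it passed for 0 genes as well, with 1645 at an unadjusted p under 0.05. Leaving out array Memory KO-3 gave 5 genes. The smallest p belonged to Ankmy2, which read 6.95, 7.31, 7.18 and 7.01 in Effector KO and 7.53 to 7.60 in Effector WT. The KO effect was -0.46 in effector cells and 0.30 in memory cells, an interaction of -0.77 (unadjusted p = 1.84e-05).

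Beyond the genes that passed, all 4 KO arrays lay above all 4 WT arrays for 602 genes (2.71%) and below them for 430 (1.94%). Without KO-4 these counts were 941 (4.24%) and 789 (3.56%). Among well-expressed genes of this kind with the smallest p were Scp2, a sterol carrier protein, at 0.67 ± 0.13 (adjusted p = 0.104), and Icam2, an adhesion molecule of leukocytes and endothelium, at 0.98 ± 0.19 (adjusted p = 0.119). Lower in KO were Vcl, which links integrins to actin, at -0.60 ± 0.12 (adjusted p = 0.119), Pop4, a subunit of RNase P, at -1.0 ± 0.22, and Pvr, a ligand of the receptors Tigit, Cd226 and Cd96, at -1.19 ± 0.25 (both adjusted p = 0.212). Pop4 and Pvr lie on chromosome 7, the chromosome of Il4i1. Without KO-4 the differences were 0.72 for Scp2, 0.81 for Icam2, -0.56 for Vcl, -0.77 for Pop4 and -0.92 for Pvr. None of these passed with or without KO-4. Without KO-2, Icam2, Vcl and Pvr did, at 1.09, -0.70 and -1.51 (adjusted p = 0.0441, 0.0295 and 0.00474). KO-2 was the KO array nearest to WT for Icam2 and Pvr. Leaving out such an array widens a difference by construction, so calls made without KO-2, here and below, are no added support.

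Genes of memory and stem-like cells had the highest median of the 35 lists. Of 26 measured, 21 were higher and 5 lower in KO, with a median of 0.36 both with and without KO-4, against 0.01 over all genes. Members ran from -1.38 to 1.65, and from -1.12 to 1.63 without KO-4. The largest fall was thus greater in size than the rises of S1pr1, Klf2 and Id3 given below. Il7r was the 1 that passed with all arrays, and 0 passed without KO-4. For 7 of 26 (26.9%) all KO arrays lay above all WT arrays, against the 2.71% of all genes, and for 0 below. The mean level of the list was 7.49, 7.25, 7.23 and 7.51 on KO-1 to KO-4 and 6.95 to 7.09 on the WT arrays, and 8.22 to 8.78 on the memory arrays.

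S1pr1, the receptor by which lymphocytes leave tissue along sphingosine-1-phosphate, read 8.73, 8.45, 8.37 and 9.43 in KO and 7.55, 7.29, 8.04 and 7.71 in WT. Klf2, the transcription factor that drives S1pr1, read 6.95, 6.37, 6.65 and 7.87 in KO and 5.67, 5.64, 6.23 and 6.03 in WT. For both genes KO-4 was the highest array, and the differences shrank from 1.09 to 0.87 and from 1.07 to 0.76 without it. Id3, an inhibitor of E proteins kept in memory precursors, read 5.23, 4.37, 4.44 and 4.90 in KO and 3.36, 3.94, 3.67 and 4.03 in WT, with a WT signal under the array median. Its difference was 0.99, or 0.93 without KO-4. None of these 3 passed with all arrays (adjusted p = 0.119, 0.258 and 0.119) or without KO-4 (0.24, 0.301 and 0.311), while Klf2 and Id3 passed without KO-2 (1.26 and 1.11, adjusted p = 0.0441 and 0.0426). For Klf2 and Id3 KO-2 was the KO array nearest to WT. Memory WT cells carried S1pr1 at 9.67, Klf2 at 7.28 and Id3 at 5.60, each above the effector WT mean. Memory cells within the effector gate would move the same genes, and their part was not tested.

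Inhibitory receptors had the lowest median of the lists. Of 19 measured, 14 were lower and 5 higher in KO, with a median of -0.31, and -0.22 without KO-4. None passed in either comparison. For 4 of 19 (21.1%) all KO arrays lay below all WT arrays, against 1.94% of all genes, and for 0 above. Without KO-4 it was 4 below and 1 above, the latter Klrg1, against 3.56% and 4.24% of all genes. The 5 higher members included Nt5e at 1.11, Lair1 at 0.68 and Klrg1 at 0.54, or 0.63, 0.64 and 0.61 without KO-4. The mean level differed widely within the KO group: 7.82, 8.27, 8.03 and 7.67 on KO-1 to KO-4, against 8.19 to 8.35 in WT, so that KO-2 lay within the WT range.

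Cd200r1, which restrains leukocytes that meet CD200, read 5.65, 6.95, 5.94 and 4.53 in KO and 7.20, 7.36, 6.96 and 7.48 in WT. KO-2 lay just under the lowest WT array, and KO-4 was the lowest. The difference was -1.48 ± 0.32 (adjusted p = 0.242), -1.07 ± 0.23 without KO-4 (adjusted p = 0.277), and -1.88 without KO-2 (adjusted p = 0.00474). Cd244a (2B4) read 5.64, 8.75, 7.69 and 6.54 in KO and 8.73, 9.48, 8.38 and 9.27 in WT, so KO-2 overlapped the WT arrays. Its difference of -1.81 ± 0.51 did not pass (adjusted p = 0.385), and it was -1.60 without KO-4 and -2.34 without KO-2 (adjusted p = 0.756 and 0.0441). KO-2 was the KO array nearest to WT for Cd200r1 and Cd244a, so leaving it out widens both differences by construction.

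Havcr2 (TIM-3), Tigit and Pdcd1lg2 were the other members with non-overlapping groups over all arrays, named here after their values were seen. Havcr2 read 9.07, 9.56, 9.46 and 7.59 in KO and 9.67, 9.69, 9.81 and 9.66 in WT. The difference was -0.79 with KO-4 and -0.35 without it. Tigit read 9.93, 10.37, 10.22 and 9.64 in KO and 10.51 to 10.61 in WT, a difference of -0.53 and, without KO-4, -0.40. Pdcd1lg2, which encodes a ligand rather than a receptor, read 3.63 to 3.90 in KO and 4.03 to 4.28 in WT. Its difference was -0.42 with and without KO-4. Every KO array read Pdcd1lg2 below its own median, where values come close to background. Pdcd1, which encodes PD-1 and was also chosen after its values were seen, read 9.39, 10.45, 9.80 and 9.22 in KO and 10.25 to 10.49 in WT, and KO-2 overlapped WT. The exhaustion factor Tox, chosen in the same way, differed by -0.31 and by -0.24 without KO-4. Adjusted p of these 5 genes was 0.525 or higher.

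**Figure D3:**
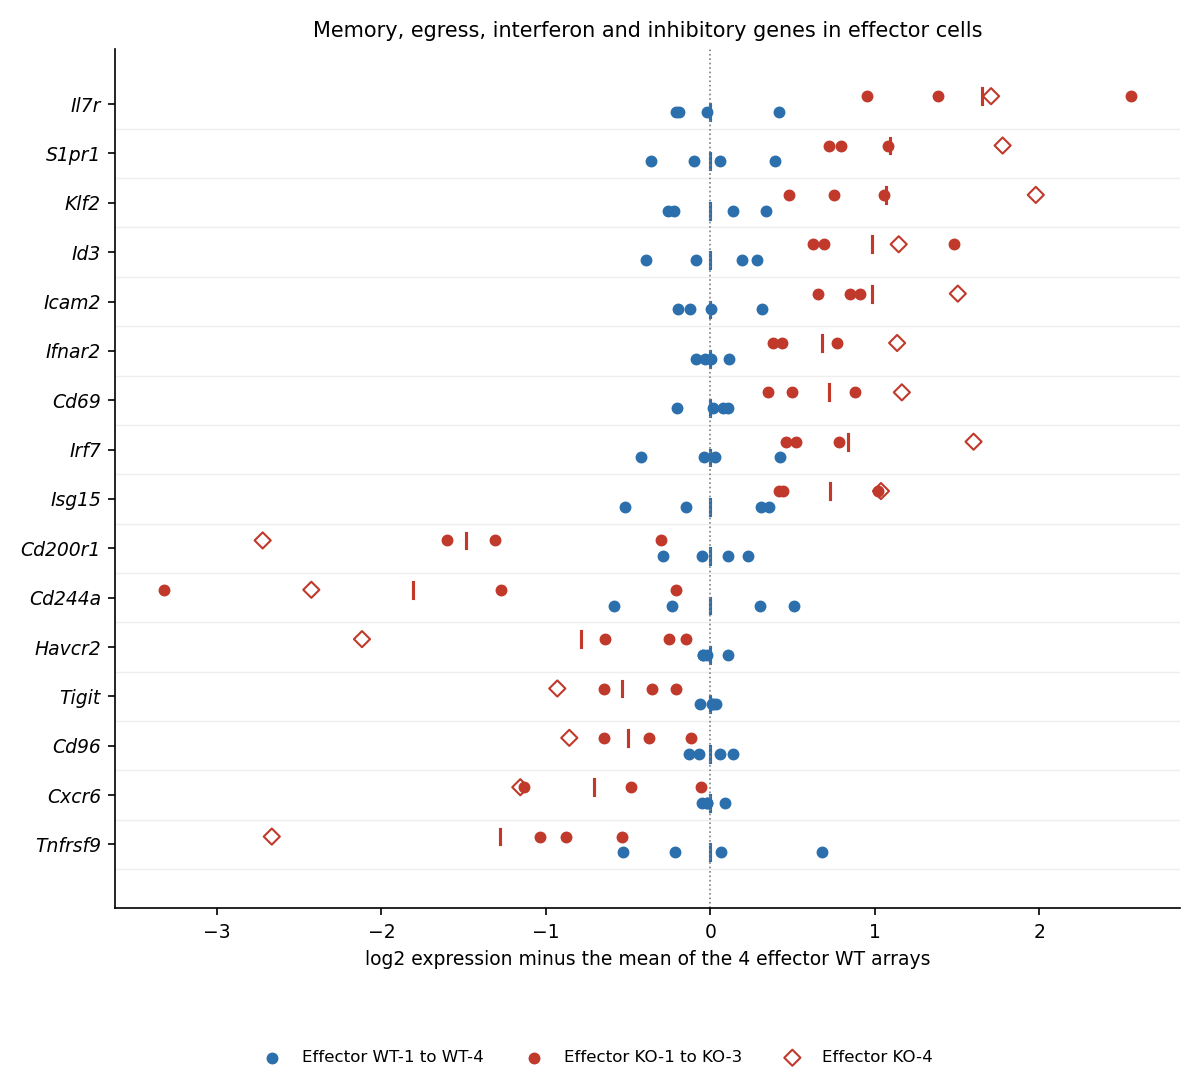
Log2 expression of 16 genes on each effector array minus the mean of the 4 effector WT arrays (horizontal axis; dotted line at 0), 1 gene per row, with WT in blue, KO-1 to KO-3 in filled red, KO-4 as an open red diamond and group means as short vertical lines. Il7r to Isg15 lie to the right of the WT arrays on every KO array, and for Cd200r1, Cd244a, Havcr2, Tigit, Cd96, Cxcr6 and Tnfrsf9 KO-2 is the KO array nearest to the WT arrays.

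Transcription factors of exhaustion and effector fate, 32 measured, had 12 members higher and 20 lower, 0 passing and a median of -0.08 with and without KO-4. Rbpj, the DNA-binding partner of Notch, read 6.15, 6.77, 5.42 and 5.10 in KO and 6.97, 7.70, 6.62 and 7.03 in WT. Its ranges overlapped through KO-2, and its difference was -1.22 ± 0.31, -0.97 without KO-4 and -1.52 without KO-2 (adjusted p = 0.337, 0.677 and 0.0426). The value without KO-2 leaves out the KO array nearest to WT. Tbx21, which encodes T-bet, read 7.94, 7.07, 6.97 and 8.76 in KO and 6.76 to 7.09 in WT, so KO-1 and KO-4 were high and the others were near WT.

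Granule and cytotoxic genes, 19 measured, had 10 members higher and 9 lower, with a median of 0.05 in both comparisons and 0 passing. Their mean level was nonetheless 7.90, 7.71, 7.73 and 7.97 on KO-1 to KO-4 and 7.58 to 7.66 on the WT arrays. Few members had large differences. Gzma, granzyme A, read 10.21, 8.06, 8.53 and 10.80 in KO and 7.26 to 8.08 in WT, and Gzmm, granzyme M, 7.03, 5.96, 5.75 and 8.05 in KO and 5.24 to 5.72 in WT. KO-1 and KO-4 were the high arrays for both genes, KO-2 lay inside the WT range for Gzma, and the differences of 1.75 ± 0.53 and 1.20 ± 0.37 (both adjusted p = 0.442) were 1.29 and 0.75 without KO-4. The main killing genes of CD8 T cells, named after their values were seen, differed less: Gzmb by 0.19 (adjusted p = 0.735) and Prf1, perforin, by -0.27 (adjusted p = 0.638), or by 0.0981 and -0.18 without KO-4.

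Chemokine receptors and egress genes, 22 measured, had 14 higher and 8 lower, 0 passing and a median of 0.08, or 0.11 without KO-4. Cxcr6, which holds T cells in tissue that carries CXCL16, read 10.04, 11.11, 10.69 and 10.01 in KO and 11.12 to 11.26 in WT, a difference of -0.71 and, without KO-4, -0.56. Ccr8 read 3.48, 4.19, 3.55 and 4.22 in KO and 5.01, 5.39, 4.69 and 4.02 in WT. Its groups overlapped through WT-4, and its difference of -0.91 (adjusted p = 0.327) was -1.03 without KO-4 and -1.17 without WT-4 (adjusted p = 0.311 and 0.0451). WT-4 was the WT array nearest to KO, so leaving it out widens the difference by construction. Among 24 cytokine receptor genes Ifnar2, a chain of the type I interferon receptor, was higher on every KO array: it read 9.10, 8.76, 8.71 and 9.46 in KO and 8.24 to 8.44 in WT, with differences of 0.68 and 0.53 (adjusted p = 0.212 and 0.311). Among 21 costimulatory genes, 8 higher and 13 lower, Tnfrsf9 (4-1BB) read 9.48, 9.82, 9.32 and 7.69 in KO and 9.83 to 11.04 in WT. KO-2 lay just under the lowest WT array, and the difference was -1.28, or -0.82 without KO-4, neither past the threshold.

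Of the type I interferon response list, KO was higher for 29 of 36 measured genes and lower for 7, with a median of 0.23, or 0.20 without KO-4. None passed. All KO arrays lay above all WT arrays for 7 of 36 (19.4%), against 2.71% of all genes, and below for 1. The mean level was 6.99, 6.80, 6.83 and 7.26 on KO-1 to KO-4 and 6.56, 6.57, 6.79 and 6.81 on WT-1 to WT-4, so KO-2 lay just under WT-4 and KO-4 was the highest. The list's median in memory cells was 0.33. Interferon-inducible GTPases, which answer mostly to type II interferon, had 11 of 16 higher and a median of 0.11, or 0.04 without KO-4. Its count of non-overlapping genes was 0 of 16, where the shares over all genes, 2.71% above and 1.94% below, leave little to see in a list of this size.

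Promoters of interferon genes carry the interferon-stimulated response element, searched here as GAAA, any 2 bases and GAAA again, on both strands with overlapping matches joined, in the 250 bases before each RefSeq start. It was present in 12 of the 27 measured members of the type I list with a promoter in the table (44.4%) and in 8 of 8 GTPase genes (100%), against 936 of 27025 genes (3.46%). Isg15 and Bst2 are shown because they were among the members with the smallest p and hold the motif, in capitals, on build GRCm38.p6.
Isg15, chr4:156200819-156201068, minus strand: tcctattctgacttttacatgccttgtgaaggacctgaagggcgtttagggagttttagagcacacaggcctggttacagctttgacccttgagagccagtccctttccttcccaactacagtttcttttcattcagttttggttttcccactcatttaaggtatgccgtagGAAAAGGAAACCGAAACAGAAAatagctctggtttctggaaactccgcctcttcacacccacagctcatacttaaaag
Bst2, chr8:71537473-71537722, minus strand: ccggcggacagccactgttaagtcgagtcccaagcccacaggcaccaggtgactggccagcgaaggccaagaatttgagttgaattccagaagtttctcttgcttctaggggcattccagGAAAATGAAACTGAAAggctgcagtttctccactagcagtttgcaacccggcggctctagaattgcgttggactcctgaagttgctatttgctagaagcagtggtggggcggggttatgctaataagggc
Isg15, a ubiquitin-like protein, read 9.41, 8.81, 8.83 and 9.43 in KO and 8.24, 7.87, 8.70 and 8.75 in WT, a difference of 0.73 ± 0.23 and, without KO-4, 0.63 ± 0.24 (adjusted p = 0.442 and 0.778). Bst2, tetherin, which holds virus particles at the cell surface, read 9.87, 9.71, 9.77 and 10.16 in KO and 9.45 to 9.52 in WT, a difference of 0.39 and, without KO-4, 0.30. Irf7, the transcription factor that amplifies the response, holds no match in this window; it read 8.82, 8.50, 8.56 and 9.64 in KO and 8.0, 7.62, 8.07 and 8.46 in WT, a difference of 0.84 and, without KO-4, 0.59. Members with the motif had a median of 0.30 (12 genes, 9 higher) and those without it 0.23 (15 genes, 12 higher); without KO-4 the medians were 0.17 and 0.18. The match is a description of these letters and no evidence of binding.

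Immediate early and AP-1 genes, which follow recent stimulation and also handling of cells, were higher for 21 of 32 and lower for 11, with 0 passing and a median of 0.12, or 0.14 without KO-4. For 5 of 32 (15.6%) the KO arrays all lay above the WT arrays, against 2.71% of all genes, and for 0 below, against 1.94%. Cd69, which draws S1pr1 off the cell surface, read 9.21, 8.68, 8.82 and 9.49 in KO and 8.12 to 8.43 in WT, a difference of 0.72 ± 0.17 and, without KO-4, 0.58 (adjusted p = 0.285 and 0.561). Junb differed by 0.43 and Zfp36, which destabilizes cytokine mRNA, by 0.62, each with non-overlapping groups, and by 0.34 and 0.41 without KO-4. Dusp6, a phosphatase that damps ERK, was lower, at -0.80, or -0.39 without KO-4. Heat shock proteins, another group that answers to handling, were higher for 9 of 15 with a median of 0.09, or 0.08 without KO-4. For 3 of these 15 the KO arrays all lay above the WT arrays, against 2.71% of all genes, and for 0 below. Without KO-4 the counts of non-overlapping genes were again 3 and 0, against 4.24% and 3.56% of all genes.

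Gene groups next to the enzyme's chemistry had medians near 0. Of 22 aryl hydrocarbon receptor genes and targets, 10 were higher and 12 lower, with 0 passing and a median of -0.01, or 0.04 without KO-4. The receptor gene Ahr read 5.65, 6.14, 4.99 and 4.30 in KO and 6.13 to 6.43 in WT. KO-4 was lowest, KO-2 overlapped WT, and the difference was -1.02 with all arrays, -0.70 without KO-4 and -1.31 without KO-2 (adjusted p = 0.385, 0.728 and 0.0495). Leaving out KO-2 takes away the KO array nearest to WT. Arnt2, a partner protein of the same family, read 5.89, 7.42, 6.26 and 4.29 in KO and 7.54, 8.56, 7.89 and 8.02 in WT, a difference of -2.03 ± 0.55 and, without KO-4, -1.47 ± 0.48 (adjusted p = 0.383 and 0.706). Arnt2 lies on chromosome 7, as does Il4i1.

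The amino acid shortage response, which runs through the transcription factor ATF4, had 19 of 33 genes higher, 14 lower, 0 passing and a median of 0.02, or 0.03 without KO-4. For 4 of 33 (12.1%) all KO arrays lay above all WT arrays, against 2.71% of all genes, and for 0 below, against 1.94%. Without KO-4 the counts were the same, against 4.24% and 3.56% of all genes. Ddit3, the member with the smallest p, differed by 0.61, or 0.42 without KO-4, with overlapping groups (limma, adjusted p = 0.442 and 0.778). Atf4 itself lay at 9.71 to 9.81 in KO and 9.43 to 9.64 in WT, a difference of 0.23 (adjusted p = 0.472), or 0.22 without KO-4. Ppp1r15a, which restores translation after stress, read 8.33, 7.71, 7.67 and 7.93 in KO and 7.42, 6.65, 6.83 and 7.46 in WT, a difference of 0.82 (adjusted p = 0.472), or 0.81 without KO-4. Amino acid transporters split into 9 higher and 14 lower with a median of -0.02, or -0.0014 without KO-4. Slc1a5, the glutamine carrier, read 9.51, 9.82, 9.65 and 9.82 in KO and 10.05 to 10.14 in WT, a difference of -0.38 (adjusted p = 0.285) and, without KO-4, -0.42. Its probe sets disagreed, and their mean gave 0.0616 with all arrays. Enzymes that break down aromatic amino acids, 19 measured, had 6 higher and 13 lower with a median of -0.02 in both comparisons. Fah, the last enzyme of tyrosine breakdown, differed by -0.89, or -0.55 without KO-4, and did not pass.

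**Figure D4:**
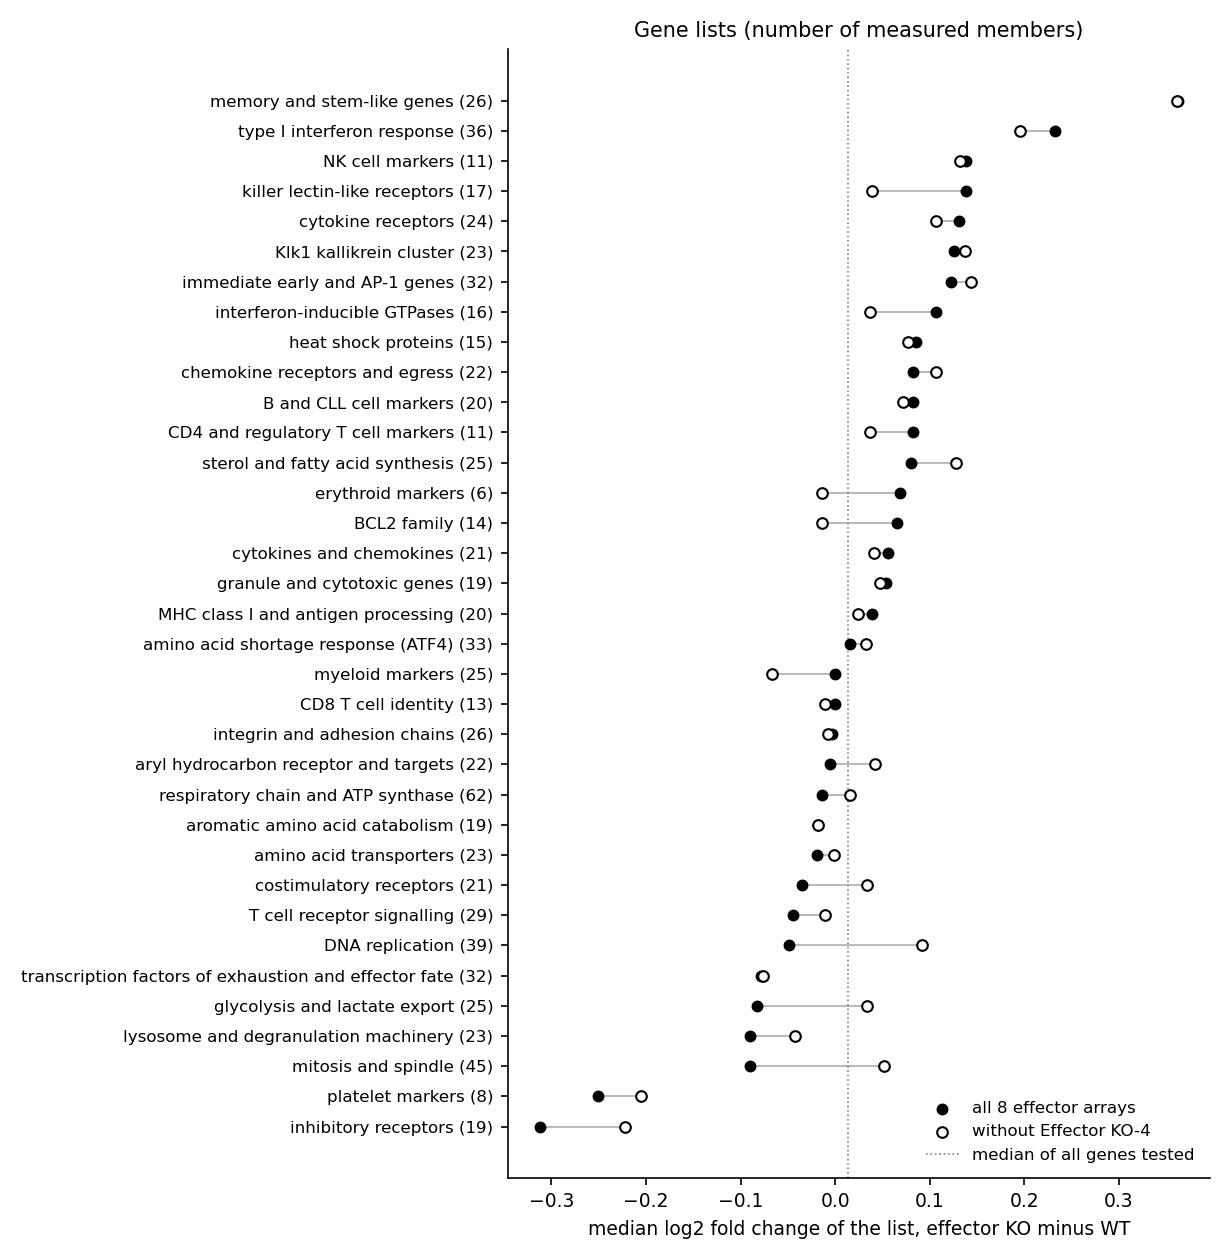
Median log2 fold change (effector KO minus WT, horizontal axis) of the 35 gene lists, with the number of measured members in parentheses; filled points use all 8 effector arrays, open points leave out Effector KO-4, and the dotted line is the median of all genes, 0.01. Memory and stem-like genes lie highest at 0.36, inhibitory receptors lowest at -0.31, and the DNA replication, mitosis and glycolysis lists lie on opposite sides of 0 with and without KO-4.

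The direction of the proliferation and glycolysis lists depended on KO-4. Mitosis and spindle genes were lower for 32 of 45 and higher for 13 with all arrays (median -0.09), and higher for 33 and lower for 12 without KO-4 (median 0.05). DNA replication genes went from 25 of 39 lower (median -0.05) to 28 of 39 higher (median 0.09), and glycolysis genes from 19 of 25 lower (median -0.08) to 14 of 25 higher (median 0.03). None of these genes passed in either comparison. The mitosis list averaged 7.79, 7.59, 7.96 and 7.09 on KO-1 to KO-4 and 7.68 to 7.79 in WT. Ndc80, a kinetochore gene, was not low on KO-4 and read 7.93, 7.56, 7.97 and 8.05 in KO and 7.26 to 7.49 in WT, a difference of 0.49 (adjusted p = 0.487), or 0.43 without KO-4. Pold1, the catalytic subunit of DNA polymerase δ, lay at 7.95 to 8.44 in KO and 8.56 to 8.72 in WT, a difference of -0.47, or -0.40 without KO-4.

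Array KO-4 differed from the rest of its group gene by gene rather than by a uniform shift. Utp15, a factor of ribosome assembly, read 6.89, 6.77 and 6.87 on KO-1 to KO-3, 6.85 to 6.87 in WT, and 3.19 on KO-4. Rnf13 read 7.25 to 7.99 on the other KO arrays and 4.12 on KO-4, Ticrr, a replication factor, 6.99 to 7.21 and 4.34, and Ikzf2, which encodes Helios, 8.04 to 8.43 and 5.63. Chp1 was high there instead, at 7.90 against 4.41 to 5.12 on the other KO arrays. For other genes KO-1 was high together with KO-4: S1pr5 read 6.79, 4.95, 4.60 and 7.60 in KO and 4.52 to 4.98 in WT, and Nt5e, the ectoenzyme CD73, 6.77, 5.21, 4.79 and 7.52 in KO and 4.78 to 5.11 in WT. Samd3 followed the same order at 7.73, 6.62, 6.59 and 8.98. For these 3 genes KO-2 and KO-3 lay inside the WT range or just above it.

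**Figure D5:**
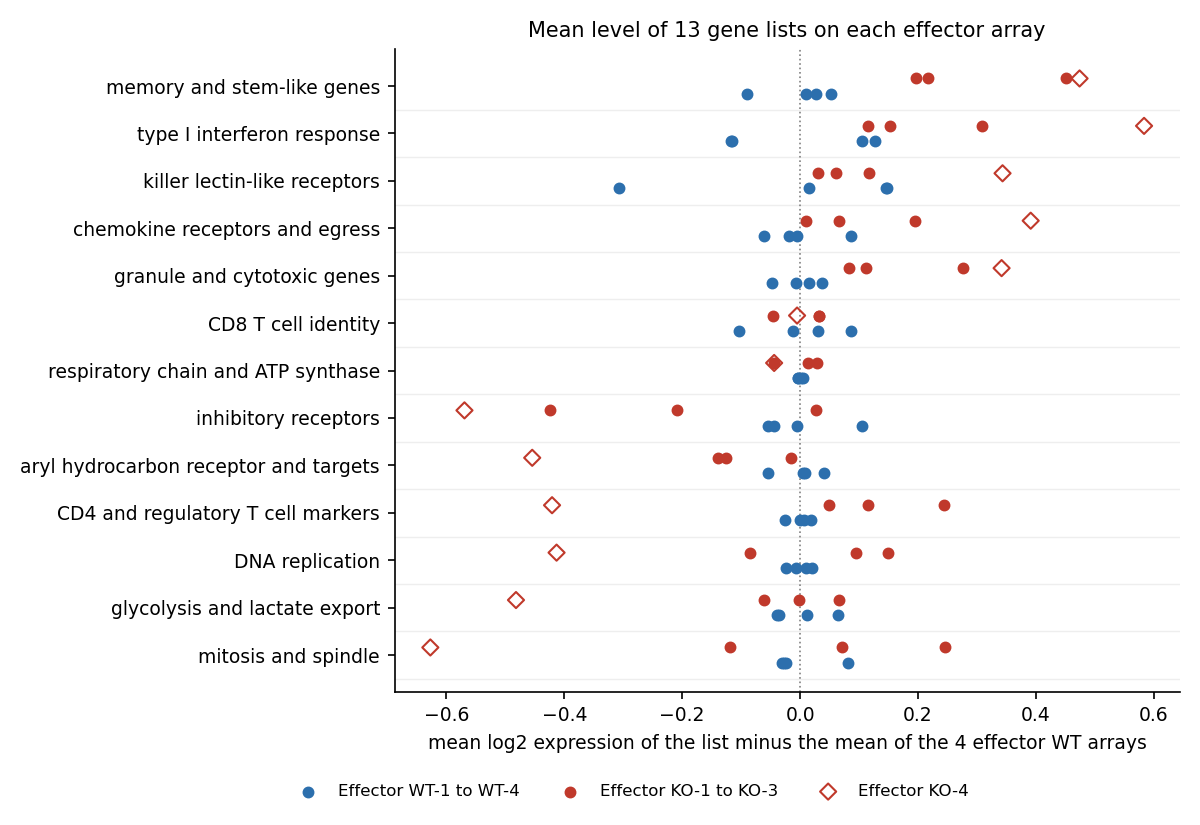
Mean log2 expression of 13 gene lists on each effector array minus the mean of the 4 effector WT arrays (horizontal axis; dotted line at 0), with WT in blue, KO-1 to KO-3 in filled red and KO-4 as an open red diamond. KO-4 is the lowest array for inhibitory receptors, aryl hydrocarbon receptor genes, CD4 and regulatory T cell markers, DNA replication, glycolysis and mitosis, and the highest for memory, interferon, killer lectin-like receptor, chemokine receptor and granule genes.

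Markers of other cells were followed beside these results. The B and CLL cell list, 20 measured genes, averaged 4.61 to 4.74 on KO-1 to KO-3, 4.88 on KO-4 and 4.47 to 4.66 in WT, with 15 genes higher, 5 lower, 0 passing and a median of 0.08, or 0.07 without KO-4. Ighm, the heavy chain of IgM, was high in every sort, at 9.87, 9.12, 9.19 and 10.04 in KO and 8.93, 9.31, 8.81 and 8.66 in WT. The CD4 and regulatory list averaged 6.20 to 6.40 on KO-1 to KO-3, 5.73 on KO-4 and 6.13 to 6.17 in WT. Of its 11 measured genes 6 were higher and 5 lower, with 0 passing. Its member Foxp3 read 6.24, 5.10, 5.41 and 5.16 in KO and 4.90 to 5.02 in WT. Every KO array lay above the WT arrays, and KO-1 was the highest. Myeloid markers averaged 5.39 to 5.51 in KO and 5.36 to 5.45 in WT, 13 of 25 higher; Ly6c2, which memory CD8 T cells also express, read 10.9, 10.30, 10.61 and 11.80 in KO and 9.35 to 10.20 in WT, a difference of 1.0 (adjusted p = 0.302) and, without KO-4, 0.71. NK cell markers averaged 6.41 to 6.71 in KO and 6.21 to 6.48 in WT, 7 of 11 higher. Platelet markers were lower for 7 of 8 genes (median -0.25, or -0.20 without KO-4), averaging 4.78 to 4.89 in KO and 4.79, 4.97, 5.16 and 5.61 across WT arrays, and their platelet chemokine Ppbp read 5.30 to 6.14 in KO and 5.87 to 7.52 in WT. The part of any of these cells in the differences was not tested.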

How the data were processed

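RNA of sorted cells was extracted with the RNeasy Micro kit and labelled with the Affymetrix WT Pico kit, per the labels' protocols. The authors deposited 1 table of log2 values for 41345 probe sets on 16 arrays; the log base was inferred from the values, and no source used here gives their background correction or normalization. Of these probe sets 23521 had exactly 1 gene symbol in GEO's platform annotation, 1814 several and 16010 none, and the brightest per gene left 22180 genes. limma 3.58.1 (R 4.3.3) fitted 4 group means to all 16 arrays, or to 15 without Effector KO-4, with Benjamini-Hochberg adjustment over all genes and a threshold of 0.05. The fit was tried on simulated independent normal values with the same spread per gene on every array. That setting holds no deviating array such as Effector KO-4, so it does not show how the fit treats one. Promoters were aligned with Biopython 1.88.

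The members and gene lists were chosen with earlier results of these data known. Named were the genes that passed, those of smallest p among non-overlapping genes and within each list, those of smallest interaction p, and those on which Effector KO-4 lay farthest from its group. Any other gene is said to have been picked with its values in view. Single arrays, the arrays in the fit, the replicate number as a block, scaling, dim genes, array weights, the variance model and the probe set rule were varied.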

Additional observations from a re-analysis of the deposited data

Results flagged for a closer look

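Within a group of 4 arrays, the highest or lowest value was set against the others by Dixon's criterion. Of 240 groups of values 9 were past it. About 1 in 20 would be past it by chance for independent groups not chosen by their values. These groups share the same arrays, and many genes were chosen by value. The number is therefore not read as a sign for or against unusual arrays. On Effector KO-4, 3 genes stood far below the other KO arrays: Utp15 at 3.19 (others 6.77 to 6.89), Ticrr at 4.34 (others 6.99 to 7.21) and Ikzf2 at 5.63 (others 8.04 to 8.43). Utp15 and Ticrr had been named because that array lay far from its group, so their place here follows from the choice. Tubb1, a tubulin of platelets, was high on Effector KO-1 at 4.03 (others 3.48 to 3.50). Alkbh6 was low on Effector WT-1 at 6.86 (others 6.94 to 6.95). Effector WT-2 was low for Sae1 at 8.24 (others 8.31 to 8.32) and for Junb at 9.06 (others 9.24 to 9.27). The mitosis list averaged 7.79 on Effector WT-1 (others 7.68 to 7.69), and the myeloid list 5.36 on Effector WT-2 (others 5.44 to 5.45).

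Among probe sets assigned to several genes, which the comparison of single genes left out, 1 shared by Eps8l1 and a RIKEN clone differed by -2.39 between effector KO and WT (limma, adjusted p = 0.00759). Probe sets of this kind were not placed on chromosomes here, so its position relative to Il4i1 was not examined.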

How the results depend on the processing

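The count of 12 genes passing with all arrays became 4 with the effector arrays only and ranged from 4 to 42 over the omission of single arrays. Without Effector KO-4 the count of 9 became 2 with the effector arrays only and ranged from 4 to 13. The interaction count of 0 ranged from 0 to 5 over single arrays and was 0 under the other settings tried. Bright genes only, scaling, array weights, the variance model and the mean of probe sets gave 12 to 13 and 9 to 12. Klk1b22, Igsf23, Myadm and Wdtc1 passed in every omission of a single array, but Igsf23 did not in the effector arrays alone (adjusted p = 0.0563). Sign changed for Cd8b1 (-0.0841 to 0.0922 over single arrays, 0.0072 after quantile normalization), Slc1a5 (0.0616 as the mean of its probe sets), Klk1b9 (-0.31 to 0.51), Ticrr (-0.92 to 0.0316), Penk (-0.98 to 0.14) and Chp1 (-0.38 to 0.78, -0.25 with array weights); the cause was not tested.

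With the replicate number as a block, 29 genes passed with all arrays, 13 without Effector KO-4 and 0 in the interaction; a different, random block, which joins effector and memory arrays of 1 genotype and number, gave 13, 9 and 0. Deviations of same-numbered effector KO and WT arrays correlated at 0.04, 0.14, -0.03 and 0.02, so the numbers were not taken to pair the genotypes. Effector and memory arrays of the same number correlated at 0.02, 0.12, 0.15 and 0.14 in KO and 0.09, 0.24, 0.14 and 0.13 in WT, which in KO-1 and WT-1 is not over 0.1. The best match was the own number for 3 of 4 and 4 of 4 effector arrays, a hint from the data and not the design.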
